A study of Mus musculus with 16 samples.

Results

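The liver carboxylesterases examined here are 10 genes of the Ces family: Ces1b, Ces1c, Ces1d, Ces1e, Ces1f and Ces1g of class 1, Ces2a and Ces2c of class 2, and Ces3a and Ces3b of class 3. They were taken by symbol from a table of 24082 gene IDs, 1 row for each Ensembl ID, and all 10 were found and passed the filter on low values. The genes were chosen by their levels and differences in these same livers, so their values are given below as a description with no p-value, and where it is said that one of them was called, that too is a description and no evidence of a difference. Tests are read only for genes outside the 10, and the lists of those genes were also chosen with earlier results of these data known. The livers came from female C57Bl6/J mice aged 9 to 11 weeks, 4 mice in each of 4 groups. Pair vehicle mice received the pair diet without the drug, Pair IMC mice the pair diet with IMC, EtOH vehicle mice the chronic ethanol diet without the drug, and EtOH IMC mice the chronic ethanol diet with IMC. IMC (iodomethylcholine) is a drug-like compound that blocks the enzyme by which gut bacteria cleave trimethylamine from choline, and it was mixed into the liquid diet at 0.06% wt/wt, and ethanol in the diet was stepped up to 6% vol/vol over 25 days. No gene was targeted. Mice given both IMC and ethanol took in less of the diet and weighed less, so intake, body weight and drug cannot be told apart in EtOH IMC. The paper also marks a difference in body weight between pair-fed mice with and without IMC, so weight and drug cannot be told apart in Pair IMC.

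Carboxylesterases are serine hydrolases that cleave esters, amides and thioesters, and hepatocytes hold most of them in the lumen of the endoplasmic reticulum, where a short retrieval signal at the end of the protein retains them. In the liver they activate or clear ester drugs, and several members also hydrolyse stored triacylglycerol and cholesteryl esters and so bear on very low density lipoprotein (VLDL) assembly. In rodents the family has expanded by tandem duplication, and the mouse has more members than humans in classes 1 to 3. Ces1c encodes the esterase that mice secrete into plasma, Ces1d the triacylglycerol hydrolase of hepatocytes, Ces1e egasyn, the partner that holds beta-glucuronidase in the endoplasmic reticulum, and Ces1g an esterase linked to liver lipid balance. Ces2a and Ces2c belong to the class of human CES2, which prefers substrates with a small acyl group and also acts on neutral lipids.

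Between 9632659 and 12601199 reads were counted on genes in each library. Values are given as rescaled normalized counts, which are the deposited values after all 16 libraries were put on 1 scale by a median ratio over 13121 genes, and group values are the mean ± SD (n = 4). Differences are log2 fold changes of value + 1 with the standard error (SE) from limma, fitted over the 16 libraries and 12537 genes, those with a value of 10 or more in 4 or more libraries. A gene is called where its adjusted p-value over all genes tested is under 0.05. The livers are whole tissue, in which fewer cells of a type and less RNA per cell cannot be told apart. Library numbers run from 1 to 16 in the labels. Numbers 1 to 8 hold Pair IMC and EtOH vehicle and numbers 9 to 16 hold Pair vehicle and EtOH IMC, so within 1 diet the effect of IMC, and within 1 treatment the effect of ethanol, cannot be told apart from anything that followed the numbering. The difference of the IMC effect between diets sets numbers 9 to 16 against 1 to 8 and cannot be told apart from it either. The IMC effect averaged over both diets and the ethanol effect averaged over both treatments are balanced over this split into low and high numbers. All ethanol-fed libraries have odd and all pair-fed libraries even numbers, so no ethanol effect, averaged or not, can be told apart from that alternation.

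All 10 genes lie on chromosome 8 (GRCm38, GENCODE vM21) in 2 clusters that are 11.4 Mb apart. The 6 class 1 genes span 280.6 kb on the minus strand, from 93056728 at the end of Ces1b to 93337308 at the start of Ces1g. The 4 others span 359.9 kb on the plus strand, from 104734003 at the start of Ces2a to 105093929 at the end of Ces3b. In the first cluster Ces1b (ENSMUSG00000078964) ends at 93080017, Ces1c (ENSMUSG00000057400) lies from 93099015 to 93131283 and Ces1d (ENSMUSG00000056973) from 93166068 to 93197838. Ces1e (ENSMUSG00000061959) follows from 93201218 to 93229619, Ces1f (ENSMUSG00000031725) from 93256236 to 93279747 and Ces1g (ENSMUSG00000057074) from 93302369. In the second Ces2a (ENSMUSG00000055730) ends at 104741634, Ces2c (ENSMUSG00000061825) lies from 104847068 to 104854483, Ces3a (ENSMUSG00000069922) from 105048601 to 105058413 and Ces3b (ENSMUSG00000062181) from 105083753. Coding sequences were between 74.5% and 95.3% identical within a class (17 pairs) and between 62.3% and 67.4% identical between classes (28 pairs). The closest pair was Ces3a and Ces3b at 95.3%, followed by Ces1b and Ces1c at 91.1% and by Ces2a and Ces2c at 83.0%. Reads of copies this close may be placed wrongly, so all stretches of 100 bases in the transcripts, the length of a read, were searched for exact copies in transcripts of other genes. Such stretches made up 1.29% of Ces1b and 1.03% of Ces1c, shared with each other, and 6.88% of Ces3a and 7.04% of Ces3b, again shared with each other. In Ces2a 8.13% was shared with Gm7208, and in Ces2c 13.6% was shared with Ces2d-ps, Gm6831 and Gm8798, while Ces1d, Ces1e, Ces1f and Ces1g held no shared stretch. How the authors counted reads that fit several genes is not given in the sources used here. The values of Ces2c, Ces2a, Ces3a, Ces3b, Ces1b and Ces1c carry that uncertainty. Ces1b had 555 to 1544 reads in a library, while Ces1c, with which it shares stretches, had 37115 to 58855.

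Promoter sequence was at hand from RefSeq (GRCm38.p6) for 7 of the 10 genes. The 250 bases before the start are printed for 5 of them, 5′ to 3′ on the strand of the gene, because they show which neighbours share their upstream sequence and which do not. Ces1b and Ces1c are shown as the pair with a long shared stretch and very different levels, Ces2a and Ces2c as the pair that was higher with ethanol, and Ces3b for the class that was lowest with ethanol and IMC together. Capitals mark matches, on either strand, to 4 motifs: TATAAA, the core of the TATA box, AGGTCA, a half-site of nuclear receptors, GTTAAT, a half-site of HNF1, and TTGCNNAA, the core of C/EBP sites. The windows are chr8:93080018-93080267 for Ces1b (minus strand, the outer of 2 starts listed), chr8:93131284-93131533 for Ces1c (minus strand), chr8:104733753-104734002 for Ces2a (plus strand), chr8:104846818-104847067 for Ces2c (plus strand) and chr8:105083505-105083754 for Ces3b (plus strand).
Ces1b: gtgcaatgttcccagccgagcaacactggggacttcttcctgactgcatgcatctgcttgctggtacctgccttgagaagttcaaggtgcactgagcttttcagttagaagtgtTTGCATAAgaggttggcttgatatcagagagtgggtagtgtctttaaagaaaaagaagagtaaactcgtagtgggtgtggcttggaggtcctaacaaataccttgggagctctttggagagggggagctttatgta
Ces1c: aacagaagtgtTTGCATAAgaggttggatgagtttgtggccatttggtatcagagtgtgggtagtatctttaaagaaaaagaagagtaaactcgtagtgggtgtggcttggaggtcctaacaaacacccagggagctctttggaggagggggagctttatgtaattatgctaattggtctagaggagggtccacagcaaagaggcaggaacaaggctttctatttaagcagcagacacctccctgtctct
Ces2a: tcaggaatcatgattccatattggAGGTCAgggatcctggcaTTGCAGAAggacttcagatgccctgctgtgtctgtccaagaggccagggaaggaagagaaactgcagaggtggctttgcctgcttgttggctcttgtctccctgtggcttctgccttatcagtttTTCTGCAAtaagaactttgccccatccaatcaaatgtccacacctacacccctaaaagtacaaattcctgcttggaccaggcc
Ces2c: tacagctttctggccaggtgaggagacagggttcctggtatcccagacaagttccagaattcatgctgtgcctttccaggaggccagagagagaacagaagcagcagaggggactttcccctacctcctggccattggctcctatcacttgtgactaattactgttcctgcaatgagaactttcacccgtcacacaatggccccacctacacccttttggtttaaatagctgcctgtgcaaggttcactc
Ces3b: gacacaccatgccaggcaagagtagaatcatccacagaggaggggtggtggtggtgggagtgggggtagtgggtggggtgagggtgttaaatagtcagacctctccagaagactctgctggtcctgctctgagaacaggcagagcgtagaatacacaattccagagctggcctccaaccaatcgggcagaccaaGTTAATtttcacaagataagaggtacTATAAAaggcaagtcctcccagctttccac

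Among 32851 promoters of this length, TATAAA was found in 12.4%, AGGTCA in 14.02%, GTTAAT in 6.43% and TTGCNNAA in 9.56%. Ces1b and Ces1c each held 1 match to TTGCNNAA, which began 136 bases before the start in Ces1b and 239 bases before it in Ces1c, and no match to the other motifs. The 144 bases next to the Ces1b start aligned with the bases from 247 to 88 before the Ces1c start at 95.8% identity. Ces2a and Ces2c aligned over 184 bases at 76.1% identity, yet Ces2a held 1 AGGTCA and 2 matches to TTGCNNAA and Ces2c none of the 4 motifs. Ces3b held TATAAA from 30 bases and GTTAAT from 56 bases before its start. Of the promoters not printed, Ces1g held TATAAA from 26 bases before the start and Ces1e held none of the 4. A match is only a run of letters, and no occupancy was measured.

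The 10 genes together took between 0.534% and 0.764% of the reads in a library, and Ces1c alone took most of them. Ces1c held 59.2% ± 3.7 of the reads of the 10 genes in Pair vehicle, 62.9% ± 1.1 in Pair IMC, 60.0% ± 0.67 in EtOH vehicle and 66.8% ± 2.6 in EtOH IMC. To compare levels between genes, values were divided by the length of the merged exons in kb. On that scale the mean over the 16 libraries was 19695 for Ces1c and 4451 for Ces1d, and the next genes were Ces1g at 1645, Ces1f at 1342 and Ces3a at 1158. Lower still were Ces2a at 862.2, Ces1e at 767.4, Ces1b at 588.9 and Ces3b at 400.7, and Ces2c was the lowest at 51.0. The level of Ces1c exceeded that of Ces1d in 16 of 16 libraries, that of Ces1d exceeded that of Ces1g in 16 of 16, and that of Ces1e exceeded that of Ces1b in 16 of 16. By contrast Ces1f exceeded Ces3a in 9 of 16 libraries, Ces3a exceeded Ces2a in 10 and Ces2a exceeded Ces1e in 8, so the middle of the order depended on the mouse. Ces1c stood 33.4-fold above Ces1b per kb and this ratio ran from 20.8 to 83.5 across the libraries.

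**Figure D1:**
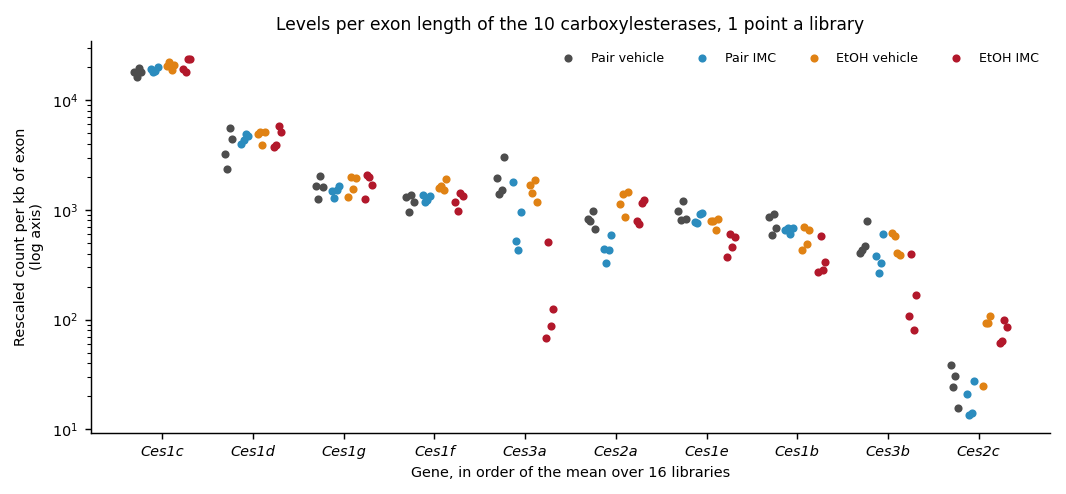
Rescaled normalized counts per kb of exon on a log axis, 1 point for each of the 16 libraries, coloured by group, with the genes in the order of their mean. All points of Ces1c (mean 19695) lie above those of every other gene, Ces1d (4451) follows, Ces2c (51.0) lies at the bottom, and Ces3a spreads from 67.8 to 3044.

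Ces3a and Ces3b, neighbours of class 3 in the second cluster, were lowest in the mice given both ethanol and IMC. Ces3a read 5109, 3644, 3978 and 7997 in Pair vehicle libraries 10, 12, 14 and 16, and 4681, 1367, 1127 and 2496 in Pair IMC libraries 2, 4, 6 and 8. It read 4451, 3727, 4913 and 3115 in EtOH vehicle libraries 1, 3, 5 and 7, and 178.2, 1342, 231.0 and 326.2 in EtOH IMC libraries 9, 11, 13 and 15. Every EtOH IMC library therefore lay below every EtOH vehicle library, while in pair-fed mice library 2 of Pair IMC stood among the Pair vehicle libraries. The log2 fold change with IMC was -3.44 (SE 0.50) in ethanol-fed mice, which is 10.9-fold lower, and -1.26 (SE 0.50) in pair-fed mice. Without library 11 the first of these was -4.06. With ethanol the log2 fold change was -0.31 (SE 0.50) in vehicle mice and -2.49 (SE 0.50) in IMC mice, the latter -3.11 without library 11.

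Ces3b followed the same order at a lower level. It read 1045, 1100, 1193 and 2039 in Pair vehicle, 980.1, 676.2, 842.1 and 1551 in Pair IMC, 1578, 1488, 1034 and 996.6 in EtOH vehicle and 274.6, 1015, 204.1 and 429.2 in EtOH IMC, in the order of the libraries given above. In EtOH IMC 3 of the 4 libraries were below every other library, and library 11 lay within the range of EtOH vehicle. With IMC the log2 fold change was -1.65 (SE 0.37) in ethanol-fed and -0.42 (SE 0.37) in pair-fed mice, and with ethanol it was -1.28 (SE 0.37) in IMC mice. The step differed between the 2 genes: Ces3a stood 3.77-fold ± 0.72 above Ces3b per kb in Pair vehicle, 2.38-fold ± 1.5 in Pair IMC, 3.22-fold ± 0.98 in EtOH vehicle and 0.943-fold ± 0.31 in EtOH IMC. This ratio ran from 2.45 to 4.64 in EtOH vehicle and from 0.634 to 1.29 in EtOH IMC, with no overlap.

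Ces1b and Ces1e of the first cluster were also lowest in EtOH IMC, but by a smaller step. Ces1b read 1699, 1167, 1812 and 1353 in Pair vehicle, 1277, 1330, 1176 and 1353 in Pair IMC, 840.5, 1359, 954.9 and 1289 in EtOH vehicle and 537.9, 1146, 552.7 and 659.9 in EtOH IMC. Only library 11 of EtOH IMC reached the values of EtOH vehicle, and none of the 4 reached those of Pair IMC. Ces1b had log2 fold changes of -0.66 (SE 0.21) with IMC in ethanol-fed mice, -0.45 (SE 0.21) with ethanol in vehicle mice and -0.90 (SE 0.21) with ethanol in IMC mice. Ces1e, which encodes egasyn, read 2153, 1768, 2644 and 1788 in Pair vehicle, 1684, 1667, 2022 and 2052 in Pair IMC, 1741, 1729, 1447 and 1804 in EtOH vehicle and 818.5, 1325, 1001 and 1235 in EtOH IMC. All 4 EtOH IMC libraries were below all the other 12, and the other 3 groups overlapped. Its log2 fold change was -0.64 (SE 0.15) with IMC in ethanol-fed mice and -0.78 (SE 0.15) with ethanol in IMC mice.

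Ces1f had a different order, with its highest values in ethanol-fed mice without the drug. It read 4273, 3128, 4489 and 3903 in Pair vehicle, 4453, 3841, 4009 and 4375 in Pair IMC, 5189, 5388, 4989 and 6305 in EtOH vehicle and 3883, 3177, 4719 and 4398 in EtOH IMC. The EtOH vehicle libraries were above all the other 12. On the log2 scale the difference was 0.48 (SE 0.13) with ethanol in vehicle mice and -0.44 (SE 0.13) with IMC in ethanol-fed mice, while with ethanol in IMC mice it was -0.06 (SE 0.13).

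The class 2 members Ces2a and Ces2c were higher in ethanol-fed mice. Ces2a, the more abundant of the 2, read 1952, 1851, 2308 and 1577 in Pair vehicle, 1045, 772.6, 1013 and 1388 in Pair IMC, 2650, 3313, 2015 and 3437 in EtOH vehicle and 1853, 1738, 2741 and 2889 in EtOH IMC. Pair IMC held the 4 lowest values of the 16 libraries, and the other groups overlapped with their neighbours. Its difference with IMC on the log2 scale was -0.88 (SE 0.20) in pair-fed and -0.31 (SE 0.20) in ethanol-fed mice, and with ethanol it was 0.55 (SE 0.20) in vehicle and 1.12 (SE 0.20) in IMC mice. Ces2c had few reads, from 32 to 254 in a library. It read 88.0, 55.8, 70.4 and 35.6 in Pair vehicle, 47.8, 31.2, 32.1 and 63.0 in Pair IMC, 56.5, 213.9, 215.4 and 249.2 in EtOH vehicle and 141.2, 147.4, 229.0 and 198.6 in EtOH IMC. All ethanol-fed libraries but library 1 were above all pair-fed libraries, and library 1 lay within the pair-fed range. With ethanol Ces2c had a log2 fold change of 1.41 (SE 0.38) in vehicle mice, or 1.91 without library 1, and 2.05 (SE 0.38) in IMC mice. With IMC it was -0.50 (SE 0.38) in pair-fed mice and 0.13 (SE 0.38) in ethanol-fed mice, the second of which took either sign as libraries were left out.

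Ces1c, Ces1d and Ces1g, the 3 most abundant members, differed least. Ces1c read 41716 ± 3094 in Pair vehicle, 43916 ± 2152 in Pair IMC, 48024 ± 3297 in EtOH vehicle and 49352 ± 6776 in EtOH IMC, with ranges that overlapped between all neighbouring groups. Its log2 fold change with ethanol, 0.20 (SE 0.12) in vehicle and 0.16 (SE 0.12) in IMC mice, depended on the scale of the libraries: on the deposited scale it was 0.39 and 0.35, where the median of all genes tested was also higher by 0.19. Averaged over both treatments Ces1c stood at 0.18 (SE 0.09) and was not called. In 4 of 11 alternatives it was called higher: the deposited scale, quantile normalization, edgeR with upper quartile scaling and DESeq2. Quantile normalization moved the median of all genes by only -0.002. Ces1d, the triacylglycerol hydrolase, ranged from 5537 to 13223 in Pair vehicle and from 8941 to 13857 over the other 3 groups. Ces1g ranged from 2974 to 4984 over all 16 libraries. Neither was called in any of the 7 comparisons, although both were called higher for ethanol averaged over both treatments on the deposited scale, and the largest of their log2 fold changes in a comparison of 2 groups was 0.36 (SE 0.21), for Ces1d with ethanol in vehicle mice.

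**Figure D2:**
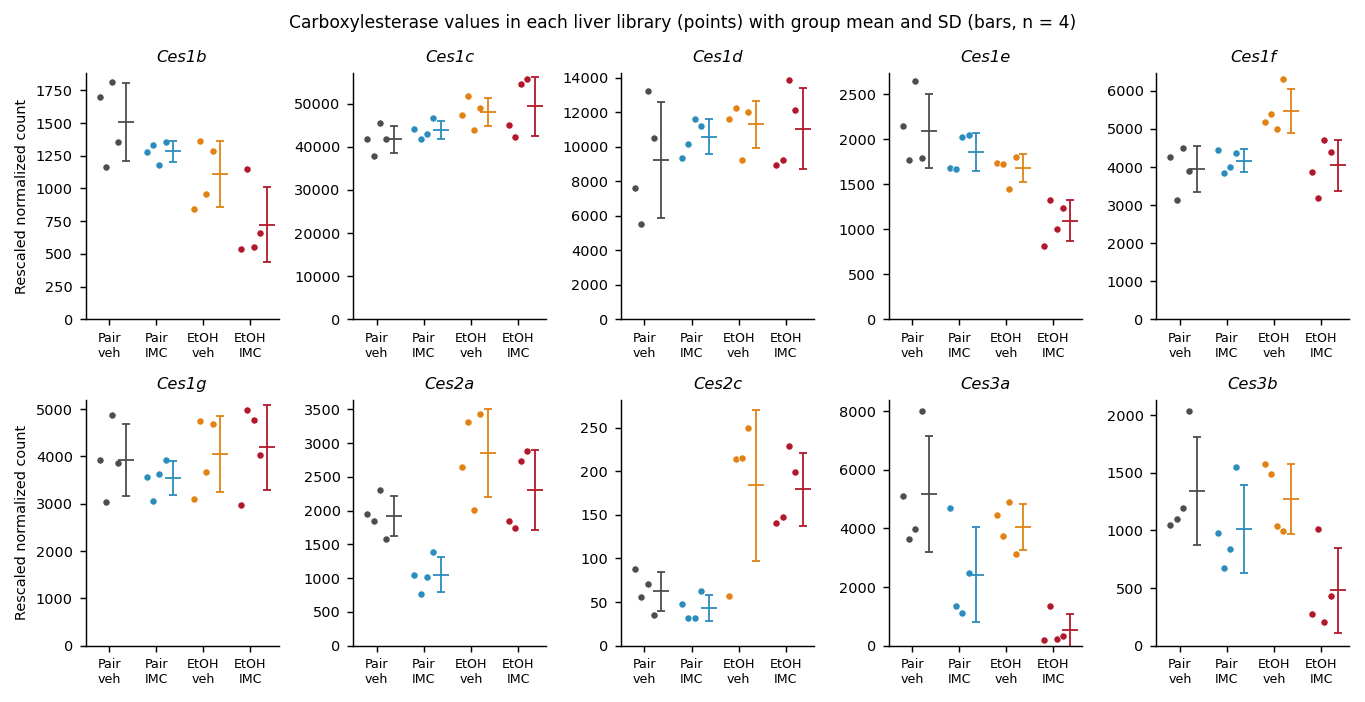
Rescaled normalized counts of each gene in each of the 16 libraries (points) by group, with the group mean and SD (n = 4) beside them, each panel on its own axis from 0, where the lower bar of Ces3a in EtOH IMC is cut off. Ces3a, Ces3b, Ces1b and Ces1e have their lowest mean in EtOH IMC (519.4, 480.8, 724.1 and 1095), Ces2a has its lowest in Pair IMC (1055), and 3 of the 4 EtOH vehicle libraries of Ces2c lie at 213.9 or above, with 1 at 56.5.

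The counts of calls among the 10 genes rest on the differences by which the genes were chosen, and nothing is read from them. With IMC in pair-fed mice 1 member was called lower (Ces2a), beside 5.17% of all genes tested, and none higher, beside 4.32%. With IMC in ethanol-fed mice 5 members were called lower (Ces1b, Ces1e, Ces1f, Ces3a and Ces3b), beside 11.1% of all genes, and none higher, beside 10.4%. For IMC averaged over both diets 5 were called lower (Ces1b, Ces1e, Ces2a, Ces3a and Ces3b), beside 14%, and none higher, beside 14.1%. With ethanol in vehicle mice 2 were called higher (Ces1f and Ces2c), beside 6.33%, and none lower, beside 5.54%. With ethanol in IMC mice 2 were called higher (Ces2a and Ces2c), beside 7.86%, and 4 lower (Ces1b, Ces1e, Ces3a and Ces3b), beside 8.57%. For ethanol averaged over both treatments 2 were called higher (Ces2a and Ces2c), beside 12.9%, and 3 lower (Ces1b, Ces1e and Ces3a), beside 13.1%. On the deposited scale, where all genes are shifted by 0.19 between diets, the members called higher with ethanol were 4 in vehicle mice, 3 in IMC mice and 6 for the average. For the average they were 4 after quantile normalization and 3 in edgeR with upper quartile scaling and in DESeq2. Several of these calls rested on single libraries. With IMC in ethanol-fed mice the call of Ces1b was lost without library 3, 7, 9, 13 or 15 (log2 fold change -0.54 to -0.90 over all libraries left out in turn) and that of Ces1f without 7 or 11 (-0.33 to -0.52). With ethanol in vehicle mice the call of Ces1f was lost without library 7 or 12 (0.37 to 0.54) and that of Ces2c without 3, 5, 7 or 16 (1.175 to 1.91), and Ces2a was called without library 5 (0.71). With ethanol in IMC mice the call of Ces3b was lost without library 2, 8, 9, 13 or 15 (-0.97 to -1.74) and in edgeR and DESeq2 on whole reads. Ces3a with IMC in pair-fed mice was called without library 11 (-1.26). For IMC averaged over both diets Ces1b was no longer called without library 3, 6, 7, 9, 10, 13, 14 or 15 (-0.38 to -0.56) and Ces1f was called without 12 (-0.23). For ethanol averaged over both treatments Ces1f (0.27) and Ces3b (-0.89) were called without library 11.

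The median log2 fold change over the 10 genes was -0.18 with IMC in pair-fed mice and -0.38 with IMC in ethanol-fed mice, where the median of all genes tested was 0.00 in both. With ethanol it was 0.13 in vehicle mice and -0.01 in IMC mice, and the median of all genes was -0.01 and 0.00. In the 2 averaged comparisons, which are balanced over low and high numbers but, for ethanol, not over odd and even ones, Ces3a stood at -2.35 (SE 0.35) and Ces3b at -1.04 (SE 0.26) with IMC, followed by Ces2a at -0.60 (SE 0.14), Ces1b at -0.44 (SE 0.15) and Ces1e at -0.40 (SE 0.10). With ethanol Ces2c stood at 1.73 (SE 0.27) and Ces2a at 0.84 (SE 0.14) above, and Ces3a at -1.40 (SE 0.35), Ces1b at -0.67 (SE 0.15), Ces3b at -0.67 (SE 0.26) and Ces1e at -0.54 (SE 0.10) below. Comparisons that share a group share its libraries: EtOH vehicle enters both the IMC effect in ethanol-fed mice and the ethanol effect in vehicle mice. Ces1f shows this, since its high values in EtOH vehicle give both of its called differences.

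**Figure D3:**
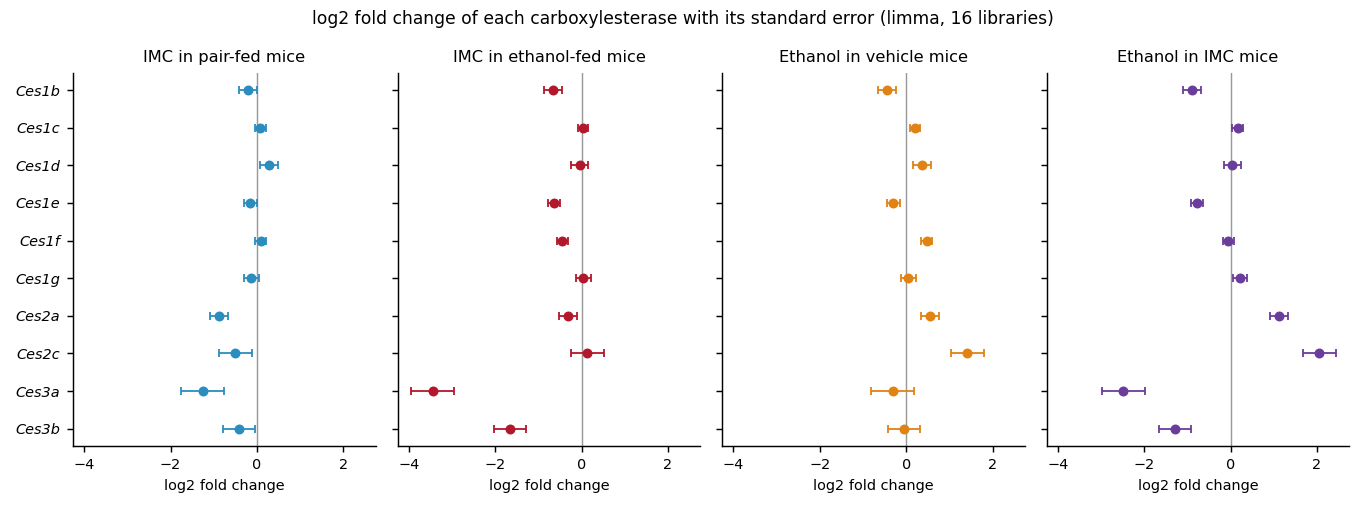
log2 fold change (points) with its SE (bars) of each of the 10 genes in the 4 comparisons of 2 groups, 1 panel each with the same axis. With IMC, Ces3a is at -1.26 in pair-fed and -3.44 in ethanol-fed mice, and with ethanol Ces2c is at 1.41 in vehicle and 2.05 in IMC mice, while Ces1c, Ces1d and Ces1g stay within 0.36 of 0 in all 4 panels.

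The difference of the IMC effect between diets was called for 1.11% of all genes tested in either direction and for none of the 10. Its log2 value, the IMC effect in ethanol-fed minus that in pair-fed mice, was -2.18 (SE 0.70) for Ces3a, -1.23 (SE 0.52) for Ces3b, -0.53 (SE 0.18) for Ces1f, -0.48 (SE 0.21) for Ces1e and -0.45 (SE 0.29) for Ces1b. For the class 2 members it was 0.57 (SE 0.28) in Ces2a and 0.63 (SE 0.54) in Ces2c. The class 2 non-members Ces2e and Ces2g had the opposite sign, at -0.54 (SE 0.26) and -0.29 (SE 0.22), and did not pass (limma adjusted p = 0.331 and 0.551). Without library 11 the difference was -2.80 for Ces3a and -1.68 for Ces3b, and both were called in that fit. This comparison is the same as that of libraries 9 to 16 with libraries 1 to 8, so it cannot be told apart from the numbering.

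Along the chromosome, neighbours could differ in their response to IMC. In the first cluster Ces1c (0.03 in ethanol-fed mice) lay 19.0 kb from Ces1b (-0.66), and Ces1e (-0.64) lay 3.38 kb from Ces1d (-0.05). In the second cluster all 4 genes tested between Ces2c and the end of the cluster, the members Ces3a and Ces3b and the non-members Ces2e and Ces2g, had a log2 fold change of -0.65 or lower with IMC in ethanol-fed mice.

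**Figure D4:**
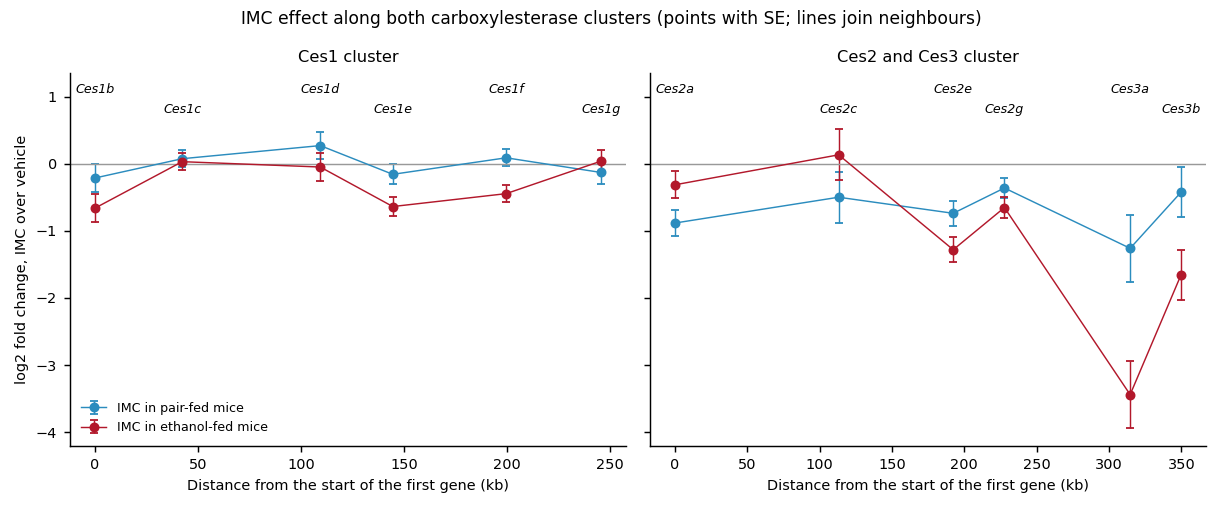
log2 fold change with IMC (points with SE) in pair-fed and ethanol-fed mice against the distance in kb from the start of the first gene of each cluster, for the 10 genes and the tested non-members Ces2e and Ces2g. Ces3a reaches -3.44 in ethanol-fed mice while Ces2c, in the same cluster, is at 0.13, and lines join neighbours only to guide the eye.

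The table held 8 further genes of the family, and 2 of them passed the filter. Ces2e, a class 2 gene of liver and gut, lay between Ces2c and Ces3a and fell with IMC in both diets. It read 2624, 1957, 2671 and 2884 in Pair vehicle, 1643, 1183, 1321 and 1988 in Pair IMC, 2815, 2817, 2900 and 2898 in EtOH vehicle and 773.8, 1478, 1145 and 1457 in EtOH IMC. The log2 fold change was -0.74 (SE 0.18, limma adjusted p = 0.0187) in pair-fed mice, where the groups overlapped by library 8, and -1.28 (SE 0.18, limma adjusted p = 0.000161) in ethanol-fed mice, where they did not overlap. The first call was lost without library 4 or library 6, with a highest adjusted p of 0.0725 over 28 alternatives in limma, edgeR and DESeq2. Ces2g, its neighbour, fell with IMC in ethanol-fed mice by 0.65 on the log2 scale (SE 0.15, limma adjusted p = 0.00602), with 809.8 ± 16.9 in EtOH vehicle and 531.6 ± 148 in EtOH IMC. In pair-fed mice the value was -0.36 (SE 0.15, limma adjusted p = 0.146), although no Pair IMC library, at 480.3 to 668.9, reached the 681.2 to 781.3 of Pair vehicle. Averaged over both diets the log2 fold change was -1.01 (limma adjusted p = 3.77e-05) for Ces2e and -0.51 (limma adjusted p = 0.00224) for Ces2g. With ethanol neither passed the test, with log2 fold changes of 0.19 and 0.16 in vehicle mice (limma adjusted p = 0.536 and 0.533). In IMC mice the values were -0.35 and -0.13 (limma adjusted p = 0.202 and 0.590). The other 6 genes were at the floor of detection: Ces1a had 1 to 9 reads in a library, Ces2h and Ces4a at most 7, Ces2b at most 3 and Ces2f at most 1. Ces5a had no read in any of the 16 libraries, and a count of 0 allows up to 3 reads in a library, counting error only. Ces1h and Ces2d-ps were not analysed here.

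Of 18 other ester hydrolases tested, from a list of 19 lipases, paraoxonases, cholinesterase and related enzymes, 10 fell and 1 rose with IMC in ethanol-fed mice and 7 did not pass. Of all genes tested 11.1% were called lower and 10.4% higher there. Afmid, an arylformamidase of tryptophan breakdown, fell by 0.96 on the log2 scale (SE 0.15, limma adjusted p = 0.000364), from 1596 ± 191 to 823.2 ± 135. Lipc, the hepatic lipase, fell by 0.95 (SE 0.13, limma adjusted p = 0.000131) and Bphl, a hydrolase of amino acid esters, by 0.66 (SE 0.11, limma adjusted p = 0.000468). The gene that rose was the paraoxonase Pon2, by 0.50 (limma adjusted p = 0.00278), which the naming rule does not cover and which was named after its value was seen. In pair-fed mice 5 fell, beside 5.17% of all genes, and 1 rose, beside 4.32%, again Pon2 by 0.41 (limma adjusted p = 0.0196). Those that fell included Lipe, the hormone-sensitive lipase, at -0.61 (limma adjusted p = 0.0492), Lipc at -0.57 (limma adjusted p = 0.0142) and Afmid at -0.51 (limma adjusted p = 0.0420). The median of the 18 was -0.47 in ethanol-fed and -0.12 in pair-fed mice, beside 0.00 for all genes in both. For IMC averaged over both diets 10 fell and 1 rose, with Lipc at -0.76 (limma adjusted p = 3.04e-05). With single libraries left out, the pair-fed calls of Lipe were lost in 13 of 16 fits (limma adjusted p up to 0.132), those of Afmid in 8 (up to 0.136) and those of Lipc without library 4 or 6 (up to 0.0561).

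With ethanol in vehicle mice 2 of the 18 hydrolases rose and 1 fell: Afmid rose by 0.65 on the log2 scale (SE 0.15, limma adjusted p = 0.0118), Lpl, the lipoprotein lipase, rose by 0.46 (SE 0.13, limma adjusted p = 0.0293) and Pnpla2, the adipose triglyceride lipase, fell by 0.52 (SE 0.10, limma adjusted p = 0.00296). Of all genes tested 6.33% were called higher and 5.54% lower there. In IMC mice 1 rose and 4 fell, beside 7.86% and 8.57% of all genes. The largest called differences there were Lipa at -0.40 (limma adjusted p = 0.0146), Faah at -0.37 (limma adjusted p = 0.00453) and Pnpla2 at -0.34 (limma adjusted p = 0.0228). These calls were lost on the deposited scale, and that of Pnpla2 also without library 2, 9 or 13 (limma adjusted p up to 0.0752). Averaged over both treatments 2 rose and 3 fell, beside 12.9% and 13.1%, with Pnpla2 at -0.43 (limma adjusted p = 0.000279), Afmid at 0.42 (limma adjusted p = 0.00851) and Aadac, the arylacetamide deacetylase, at -0.26 (limma adjusted p = 0.0114). The call of Lpl was lost without library 3, 7, 10, 12 or 14 (limma adjusted p up to 0.0958). On the deposited scale, with its shift of all genes, the fall of Aadac was -0.07 (limma adjusted p = 0.467).

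Of 14 nuclear receptors and other regulators of drug and lipid genes, 3 rose and 2 fell with IMC in ethanol-fed mice, beside 10.4% and 11.1% of all genes. In pair-fed mice 1 rose and 2 fell, beside 4.32% and 5.17%. Hnf4a, which encodes a nuclear receptor that maintains hepatocyte identity, rose in ethanol-fed and pair-fed mice, by 0.62 (SE 0.13, limma adjusted p = 0.00298) and 0.71 (SE 0.13, limma adjusted p = 0.00322), from 8036 ± 1062 to 12314 ± 842 and from 8644 ± 1234 to 14188 ± 2333. Ppara, the receptor for fatty acids, fell by 0.50 in ethanol-fed mice (limma adjusted p = 0.0199), and Nr1h4, the bile acid receptor FXR, rose by 0.41 (limma adjusted p = 0.0174). In pair-fed mice Srebf1, which drives fatty acid synthesis, fell by 0.79 (limma adjusted p = 0.000821) and Nr3c1, the glucocorticoid receptor, by 0.36 (limma adjusted p = 0.0318). With ethanol in vehicle mice none rose and 3 fell, beside 6.33% and 5.54% of all genes: Nr1h4 by 0.50 (limma adjusted p = 0.0103), Ppara by 0.48 (limma adjusted p = 0.0378) and Nr1i2, the xenobiotic receptor PXR, by 0.27 (limma adjusted p = 0.0427). Nr1i3, the xenobiotic receptor CAR, fell with ethanol in IMC mice by 0.66 (SE 0.16, limma adjusted p = 0.0106). In that comparison of the 14 genes 1 rose and 2 fell, beside 7.86% and 8.57% of all genes, and averaged over both treatments 1 rose and 4 fell, beside 12.9% and 13.1%. The gene that rose in both was Srebf1, by 0.82 (limma adjusted p = 0.000302) and 0.54 (limma adjusted p = 0.000256). For IMC averaged over both diets 3 rose and 4 fell, Hnf4a with the largest value of 0.67 (limma adjusted p = 7.22e-05). With single libraries left out, the call of Nr1i2 was lost in 8 of 16 fits (limma adjusted p up to 0.113), that of Nr3c1 in 6 (up to 0.0925) and that of Nr1h4 with IMC without library 1 (0.0569). The call of Ppara was lost in 3 fits with IMC (limma adjusted p up to 0.0661) and in 5 with ethanol in vehicle mice (up to 0.123). The calls of Nr1h4, Ppara and Nr1i2 with ethanol in vehicle mice were also lost on the deposited scale.

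Of 8 genes of VLDL assembly tested, none was called with IMC in pair-fed mice by limma or edgeR, with 3 at an unadjusted p under 0.05 and 2 called by DESeq2. There limma called 4.32% of all genes higher and 5.17% lower. In ethanol-fed mice limma called 1 lower and none higher, beside 11.1% and 10.4% of all genes. It was Cideb, a lipid droplet protein, which fell by 0.50 (SE 0.11, limma adjusted p = 0.00320). For IMC averaged over both diets Cideb fell by 0.33 (limma adjusted p = 0.00328) and Mttp, the microsomal triglyceride transfer protein, rose by 0.18 (limma adjusted p = 0.0475), a call lost in 13 of 16 fits with single libraries left out (up to 0.106). With ethanol 1 rose in vehicle mice, Tm6sf2, which takes part in loading VLDL with lipid, by 0.28 (SE 0.09, limma adjusted p = 0.0420). None fell there, and 6.33% of all genes were called higher and 5.54% lower. Averaged over both treatments 3 rose and none fell, beside 12.9% and 13.1% of all genes. Those that rose were Tm6sf2 by 0.37 (limma adjusted p = 0.000427), P4hb, a subunit of the lipid transfer complex, by 0.23 (limma adjusted p = 0.0329) and Surf4, a cargo receptor, by 0.18 (limma adjusted p = 0.0337). In IMC mice 2 rose and 1 fell, beside 7.86% and 8.57% of all genes. Tm6sf2 stood at 0.45 (limma adjusted p = 0.00249), Surf4 at 0.26 (limma adjusted p = 0.0410) and Cideb at -0.33 (limma adjusted p = 0.0414). With single libraries left out, the calls of Surf4 and Cideb were each lost in 7 of 16 fits (limma adjusted p up to 0.117 and 0.136). The shift of 0.19 on the deposited scale adds to these ethanol values and is as large as that of Surf4 averaged over both treatments. With single libraries left out, the averaged calls of Surf4 were lost in 10 of 16 fits (limma adjusted p up to 0.068), those of P4hb in 9 (up to 0.0606) and that of Tm6sf2 in vehicle mice in 8 (up to 0.109). Of the receptors that return proteins to the endoplasmic reticulum, 2 of 3 were tested and 1 was called in 1 comparison, Kdelr2, which rose by 0.29 with ethanol in IMC mice (limma adjusted p = 0.0301) and lost its call without library 6, 8, 11 or 15 (up to 0.0906). For the difference of the IMC effect between diets limma and edgeR called no gene of these 4 lists. At an unadjusted p under 0.05 limma had 6 of the 18 ester hydrolases, 2 of the 14 regulators, 2 of the 8 genes of VLDL assembly and 1 of the 2 receptors, and DESeq2 called 2 ester hydrolases.

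Over the 16 libraries the log2 values of some members ran closely together, which is given as a description, since the points share the 4 groups. Pearson's r was 0.92 between Ces3a and Ces3b and 0.90 between Ces1b and Ces1e, and 0.78 and 0.68 once the group means were removed. Ces3a ran with the non-members Ces2e (0.86) and Ces2g (0.80), and Ces2a with Ces2c (0.78). Ces1b and Ces1c, which share a stretch of promoter, had r = -0.48 over all libraries and -0.02 within groups. The 17 pairs of 1 class ranged from -0.48 to 0.92 with a median of 0.32, and the 28 pairs of different classes from -0.50 to 0.79 with a median of 0.06.

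**Figure D5:**
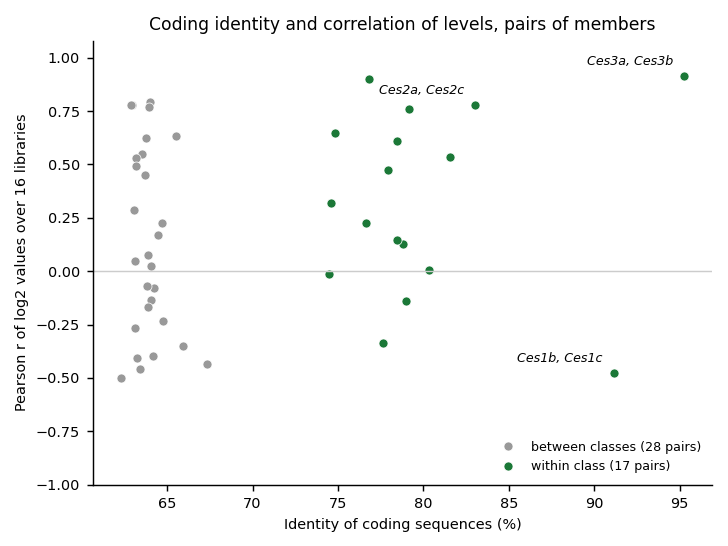
Pearson's r of log2 values over the 16 libraries against the identity of the coding sequences in percent, 1 point for each of 45 pairs of members, coloured by whether both genes are of 1 class. Ces3a and Ces3b (95.3% identical) have r = 0.92, Ces1b and Ces1c (91.1%) have r = -0.48, and pairs of different classes cover nearly the same span.

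The genes outside the family whose pattern over the 16 libraries was most like that of each member were found by Pearson's r. For Ces3a they were Sult2a8 (0.97), a liver sulfotransferase, Fads2 (0.96), a fatty acid desaturase, and Cryz (0.96), and for Ces3b Suclg1 (0.95), AW549542 (0.93) and Hadh (0.93). For Ces1b they were Amy1 (0.95), Chchd3 (0.94) and Cyp2e1 (0.93), the ethanol-oxidising cytochrome P450, and for Ces1e Atp5a1 (0.95), Sdha (0.94) and Amy1 (0.94). For Ces2a they were Rarres2 (0.96), Gpt (0.94) and Abhd14a (0.93), and for Ces2c Aldh1a1 (0.93), Gsta3 (0.92) and Cyp2c50 (0.89). For Ces1c they were Acp5 (0.87), Bcap31 (0.84) and Azgp1 (0.84), for Ces1d Tab1 (0.83), Crym (0.81) and Slc6a13 (0.80), for Ces1f Slc47a1 (0.85), Cyp2b9 (0.85) and Ogdh (0.84), and for Ces1g Plekhg6 (0.79), Aamdc (0.78) and Slc25a5 (0.77). These are the highest of 12537 genes tested, and the 16 points share their 4 groups.

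Members also differed in how much mice of 1 group varied. The SD within groups on the log2 scale was 0.85 for Ces3a, 0.64 for Ces2c and 0.63 for Ces3b, above that of 98.4%, 95.5% and 95.4% of the genes tested. Ces1c, at 0.13, lay above 18.6% of genes, and the median of all genes was 0.20. Within EtOH IMC library 11 held the highest value of Ces1b, Ces1e, Ces1g, Ces3a and Ces3b and the lowest of Ces1c, Ces1f and Ces2a.

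Markers of hepatocytes were abundant in every library, with a sum over 6 genes between 931100 and 1779358. With IMC in ethanol-fed mice 1 of the 6 was called and 5 did not pass. Cyp2e1 fell there by 0.82 on the log2 scale (SE 0.20, limma adjusted p = 0.00893), and Ces1b, Ces1e, Ces1f, Ces3a and Ces3b were lower too. Cyp2e1 also fell with ethanol in IMC mice by 1.0 (SE 0.20, limma adjusted p = 0.0034), and the other 5 did not pass in limma. The sum of the 6 ranged from 1594450 to 1738493 in Pair IMC and from 931100 to 1230884 in EtOH IMC. In that comparison edgeR called 2 of the 6 lower and DESeq2 called 4. Ces1b, Ces1e, Ces3a and Ces3b were lower there, and Ces2a and Ces2c higher. For ethanol averaged over both treatments Cyp2e1 fell by 0.74 (limma adjusted p = 0.00128) and Apoa1 by 0.41 (limma adjusted p = 0.024), and 4 did not pass in limma. For this average edgeR called 3 of the 6 lower and DESeq2 called 4. For IMC averaged over both diets limma called Cyp2e1 alone, while edgeR and DESeq2 each called 1 of the 6 higher and 1 lower. The call of Apoa1 was lost with no filter and on the deposited scale (up to 0.173). Of the intestinal markers Cdx2 was at 0 in all libraries and Lct and Alpi had a value of at most 1.17. Fabp2, which is listed with them but is also made in liver, fell with IMC in ethanol-fed mice by 1.40 (SE 0.37, limma adjusted p = 0.0121, not called by edgeR). It read 234.1, 1251, 186.2 and 325.2 in EtOH IMC, with library 11 again apart. Vil1, the only other intestinal marker tested, was not called by limma with IMC in either diet. Its values were 12.3, 27.4, 16.4 and 9.16 in Pair vehicle and 3.05, 2.92, 7.02 and 1.26 in Pair IMC. In ethanol-fed mice they were 0.90, 12.8, 12.7 and 1.01 without IMC and 3.44, 5.08, 1.99 and 11.3 with it. Of 4 stellate cell markers 1 fell with IMC in ethanol-fed mice (Reln, by 1.26, limma adjusted p = 8.63e-05) and 1 rose with ethanol in vehicle mice (Lrat, by 1.16, limma adjusted p = 0.00202), and Ces1f and Ces2c were higher there. With ethanol in IMC mice Lrat (1.25, limma adjusted p = 0.000679) and Des (1.0, limma adjusted p = 0.0265) rose and Reln fell by 0.85 (limma adjusted p = 0.00276). The sum of the 4 ranged from 925.9 to 1437 in Pair vehicle, 833.0 to 1111 in Pair IMC, 1515 to 2017 in EtOH vehicle and 848.4 to 1274 in EtOH IMC. In pair-fed mice, where Ces2a was lower with IMC, Krt7 of 4 bile duct markers fell by 1.52 (limma adjusted p = 0.0385) and Ctrb1 of 4 pancreatic markers by 3.56 (limma adjusted p = 0.0265). Both calls were lost without library 4, 6, 10 or 12, and that of Ctrb1 also without 8 or 14 (limma adjusted p up to 0.116 and 0.078). The bile duct sum ranged from 133.4 to 470.7 in Pair vehicle and from 81.9 to 119.0 in Pair IMC. The pancreatic genes Cpa1 and Pnlip were at 0 in all libraries and Ctrb1, the only 1 of the 4 that was tested, was at most 43.1. Cela2a, the remaining pancreatic marker, went the other way. It read 0, 0, 0 and 3.05 in Pair vehicle and 11.2, 5.85, 8.02 and 16.4 in Pair IMC. Of 4 endothelial markers 2 rose with ethanol averaged over both treatments, Lyve1 by 0.57 (limma adjusted p = 0.0254) and Clec4g by 0.32 (limma adjusted p = 0.0119). Of 4 adipocyte markers only Cidec was tested, and it fell by 0.83 in that comparison (limma adjusted p = 0.00282). The other adipocyte markers, Adipoq, Plin1 and Lep, were too low to be tested. Whether fat cells differed between the diets was not tested. The call of Lyve1 was lost in 6 of 16 fits with single libraries left out (up to 0.0565). The sum of 4 Kupffer cell markers ranged from 1210 to 3327, with the highest value in library 16 of Pair vehicle, where Ces3a and Ces3b were also highest. By group, however, the median of this sum was lowest in Pair vehicle, at 1608. It was 1771 in Pair IMC, 2288 in EtOH vehicle and 1956 in EtOH IMC. Kidney markers had a sum of at most 1.70. The part of these cell types in the values of the carboxylesterases was not tested.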

How the data were processed

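mRNA of 16 mouse livers was sequenced from directional TruSeq libraries with 100-base reads, and the authors used Trim Galore, FastQC and STAR on mm10. The counter and its rule for reads that fit several genes are not given in the sources used here. The signal values that the authors deposited are reads per gene divided by a factor of the library: in each of the 16 libraries 100% of them were whole multiples, within 0.01, of the value of 1 read, which ran from 0.906 to 1.18. The table held 27212 rows and 24082 gene IDs, and no sample column was left out. The values were rescaled by a median ratio over 13121 genes above 0 in all libraries (mean factor 0.936 in pair-fed and 1.07 in ethanol-fed mice).

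Because the values are not counts, the main test was limma 3.58.1 (R 4.3.3) on log2(value + 1) with 4 group means over 16 libraries, for the 12537 genes with a value of 10 or more in 4 or more libraries, two-sided, with Benjamini-Hochberg adjustment over all genes within each of 7 comparisons. A fold change on this scale understates that of low genes. The study names edgeR for its own tests. edgeR 4.0.16 and DESeq2 1.42.0 on the recovered whole reads, pseudocounts of 0.5 and 5, no filter, a mean of at least 100, quantile normalization, the deposited scale, fits of only the libraries compared and each library left out were alternatives. The fits were tested on simulated data. The labels name 1 liver sample for each library, and replicate pairs differed by more than sampling noise.

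The 10 genes and all lists (other Ces genes, other ester hydrolases, regulators, VLDL assembly, retrieval receptors, markers of hepatocytes and 8 other cell types) were chosen with earlier results of these data known. From each list up to 3 genes with the largest difference among those called could be named in each comparison described, and in some comparisons fewer of them are printed. For each member the 3 genes with the highest correlation were named. Positions and exon lengths are from GENCODE vM21 (GRCm38), promoters from RefSeq (GRCm38.p6). Intervals and floors cover counting error only.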

Additional observations from a re-analysis of the deposited data

Results flagged for a closer look

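In the EtOH IMC group, Ces3a had a rescaled normalized count of 1342 in library 11, far above the other 3 libraries, which lay between 178.2 and 326.2. The gap was 0.873 of the range of the group, over the 95% limit of Dixon for 4 samples. In the Pair vehicle group, Ces3b read 2039 in library 16 and between 1045 and 1193 in the other 3, a gap of 0.851 of the range. These were 2 of 48 groups of 4 tested, over the 10 members and Ces2e and Ces2g, and chance alone passes the limit in about 1 in 20 groups, so this many are no more than chance would give. The members were chosen by these same values, and the gaps are a description. The technical or biological source of either value was not tested.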

How the results depend on the processing

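Counts of genes called were 1189 for IMC in pair-fed mice, 2693 for IMC in ethanol-fed mice, 3528 for IMC averaged over both diets, 1488 for ethanol in vehicle mice, 2060 for ethanol in IMC mice, 3266 for ethanol averaged over both treatments and 139 for the difference of the IMC effect between diets. With only the libraries compared, IMC in pair-fed mice gave 691. On the deposited scale ethanol gave 3000 (2801 higher and 199 lower) in vehicle mice, 3624 (3183 and 441) in IMC mice and 5222 (4730 and 492) averaged, since the median of all genes was then higher by 0.19. The difference between diets gave 80 with no filter and 338 in DESeq2. Without library 15, an alternative chosen after seeing the data, edgeR gave 1352 for ethanol in IMC mice and 72 for the difference, and DESeq2 gave 261 for the difference. When libraries were left out singly, counts ranged from 537 (without Pair IMC 4) to 1443 for IMC in pair-fed mice, 1987 to 2823 for IMC in ethanol-fed mice and 2955 to 3740 for its average, from 803 (without EtOH vehicle 5) to 1595, 1368 (without EtOH IMC 15) to 2213 and 2736 to 3455 for ethanol in the same order, and from 54 (without EtOH vehicle 5) to 164 for the difference. Except for the scale and the smaller sets of genes or libraries, the cause of these moves was not tested. Of the alternative values for the 10 members, 1924 moved by less than the spread between replicates, 6 moved by more (Ces1c with ethanol, at 0.39, 0.35 and 0.37 on the deposited scale and 0.34, 0.30 and 0.32 after quantile normalization) and none of the called values changed sign. For the other named genes 1911 kept their call, 228 lost it and none changed sign. Fits of only the libraries compared gave no value for averages or differences. Counting error limits Ces2c most. No paired analysis was possible because the groups share no replicate numbers.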
